A study of Homo sapiens with 6 samples.

Results

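The genes described here encode the machinery of the G1 restriction step of the cell cycle: the D-type cyclins CCND1, CCND2 and CCND3, their kinases CDK4 and CDK6, the inhibitors CDKN1B, CDKN1C, CDKN2C and CDKN2D, and the retinoblastoma gene RB1. They were chosen by name as rows of the deposited count table, 10 of its 60683 rows, and all 10 passed the filter on low counts. The table holds messenger RNA from 143B cells, a human osteosarcoma line derived from the HOS line, in 6 libraries. In 3 of them the cells had been kept with PBS for 24 h, and in the other 3 with TPBC-PEG for 24 h, in a study on photodynamic therapy, a treatment in which light activates a compound taken up by cells. The dose of TPBC-PEG is 3 µM by the titles and 300 µM by the treatment protocol, which leaves it unsettled. The series' design text names PDT along with TPBC-PEG, while no sample label records light exposure. Nothing states that replicates came from separate cultures, and p-values then cover the spread among the libraries alone, which may be technical. Both groups come from 1 cell line.

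As background, mitogens raise D-type cyclins, which bind and activate CDK4 or CDK6. The active kinases phosphorylate the RB protein, which then releases E2F transcription factors, and these switch on genes for DNA synthesis. Inhibitors of the INK4 family, to which CDKN2C (p18) and CDKN2D (p19) belong, bind the kinases and keep D-type cyclins off them. Those of the CIP/KIP family, CDKN1B (p27) and CDKN1C (p57), bind cyclin-kinase complexes and block the later cyclin E kinase most strongly. Loss of this brake is common in osteosarcoma, where RB1 is often mutated.

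Library totals ran from 15726323 to 20486584 counts, of which 23921 to 34961 fell on the 10 genes. Mitochondrially encoded mRNAs took 5.42% to 6.32% of counts in the PBS libraries and 4.75% to 4.92% in the TPBC-PEG libraries, and the part of this difference in the results below was not tested. Of 6 osteoblast and mesenchymal markers 5 reached 1 CPM (counts scaled to the effective library total by TMM, the trimmed mean of M-values) and COL1A2 did not, at 0.13 CPM or less in every library. Of the epithelial markers, EPCAM was present at 15.1 to 17.7 CPM and CDH1 was at or near 0, while the summed level of the leukocyte markers stayed at or under 0.126 CPM and that of the endothelial markers at or under 0.257 CPM.

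Promoter sequences show how the members compare in the bases before their start sites. RefSeq windows on GRCh38.p14 matched 7 of the 10 genes, with 12 windows in all, and CCND1, CCND2 and CDKN1C were not matched. The 3 stretches below are shown because they hold GC boxes and lie outside annotated exons. They belong to a D-type cyclin, a kinase and an INK4 inhibitor, and capitals mark each GC box in the stretch (GGGCGG on either strand). The CCND3 stretch is chr6:41941849-41942058, before a start site inside the gene. The CDK6 stretch is chr7:92836595-92836823 and the CDKN2D stretch chr19:10569060-10569229, both just upstream of the annotated gene. All 3 are on the minus strand and printed 5′ to 3′ along the gene.
CCND3: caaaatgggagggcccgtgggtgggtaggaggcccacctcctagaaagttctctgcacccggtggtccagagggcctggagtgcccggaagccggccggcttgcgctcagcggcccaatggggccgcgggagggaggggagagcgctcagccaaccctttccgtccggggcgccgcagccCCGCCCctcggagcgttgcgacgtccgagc
CDK6: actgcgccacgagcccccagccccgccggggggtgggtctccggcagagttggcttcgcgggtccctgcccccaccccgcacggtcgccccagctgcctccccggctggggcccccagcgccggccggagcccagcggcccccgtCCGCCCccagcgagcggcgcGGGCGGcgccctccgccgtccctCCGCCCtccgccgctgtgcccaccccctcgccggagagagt
CDKN2D: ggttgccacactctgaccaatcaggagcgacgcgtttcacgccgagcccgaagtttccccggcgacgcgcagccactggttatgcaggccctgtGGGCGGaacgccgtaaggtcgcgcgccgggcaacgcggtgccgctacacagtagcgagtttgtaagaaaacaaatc

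In the 250 bases before each start site a GC box stood in 8 of the 12 windows, from 6 of the 7 genes, RB1 being the exception. The RB1 window lies at a start site inside the gene. Over all 34943 RefSeq windows of this length 42.6% held a GC box. E2F sites (TTTCCCGC, TTTCGCGC, TTTGCCGC or TTTGGCGC, either strand) were found in 0 of the 12 windows and in 2.77% of all windows. A FOXO site (TGTTTAC), a C/EBP-ATF composite site (TGATGNAA) and a cyclic AMP response element (TGACGTCA) were also in 0 of the 12, against 2.98%, 3.15% and 1.63% of all windows. A GC box stood in windows of genes that fell, of CDKN1B, which rose, and of CDKN2D, which did not pass the test. Several of these windows lie largely within annotated exons of the same gene. Such exons cover 244 of the 250 bases for CDKN1B and 211 for CDK4. They cover all 250 for the CDKN2C windows with a GC box and for a CCND3 window. These letter matches describe the windows only.

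The comparison asks which of these transcripts differ after TPBC-PEG. Messenger RNA of CCND1, CCND3, CDK4, CDK6, CDKN2C and RB1 fell, to between 0.758 and 0.880 times the PBS level, and that of CCND2 and CDKN1B rose, to 1.53 and 1.35 times. CDKN1C and CDKN2D, the least abundant of the 10, did not pass the test. CCND2 thus went in the opposite direction to the other D-type cyclins, and the CIP/KIP gene CDKN1B in the opposite direction to the INK4 gene CDKN2C.

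Of the 10 genes 2 were called higher and 6 lower by edgeR's quasi-likelihood test, with p-values adjusted by Benjamini-Hochberg over 15846 genes and a threshold of 0.05. Over all genes tested 33.2% were called, 16.2% higher and 16.9% lower. The share called among the 10 was larger, but they were chosen with earlier results of these data known. The comparison with the background is therefore a description only. The 8 called genes stood between the 47.5th and the 99.5th percentile of mean CPM over all genes tested, and CDKN1C and CDKN2D at the 20.4th and 24.1th. The median log2 fold change of the 10 was -0.24, beside 0.011 for all genes tested, and the median absolute log2 fold change was 0.35 beside 0.17. The groups lay apart, with no overlap of their libraries, for 7 of the 10 genes, 2 of them higher and 5 lower, against 43.4% of all genes, 22.1% higher and 21.4% lower. RNA from all cells of a culture was pooled, so a change in the share of cells that hold a transcript and a change of its amount per cell cannot be told apart.

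**Figure D1:**
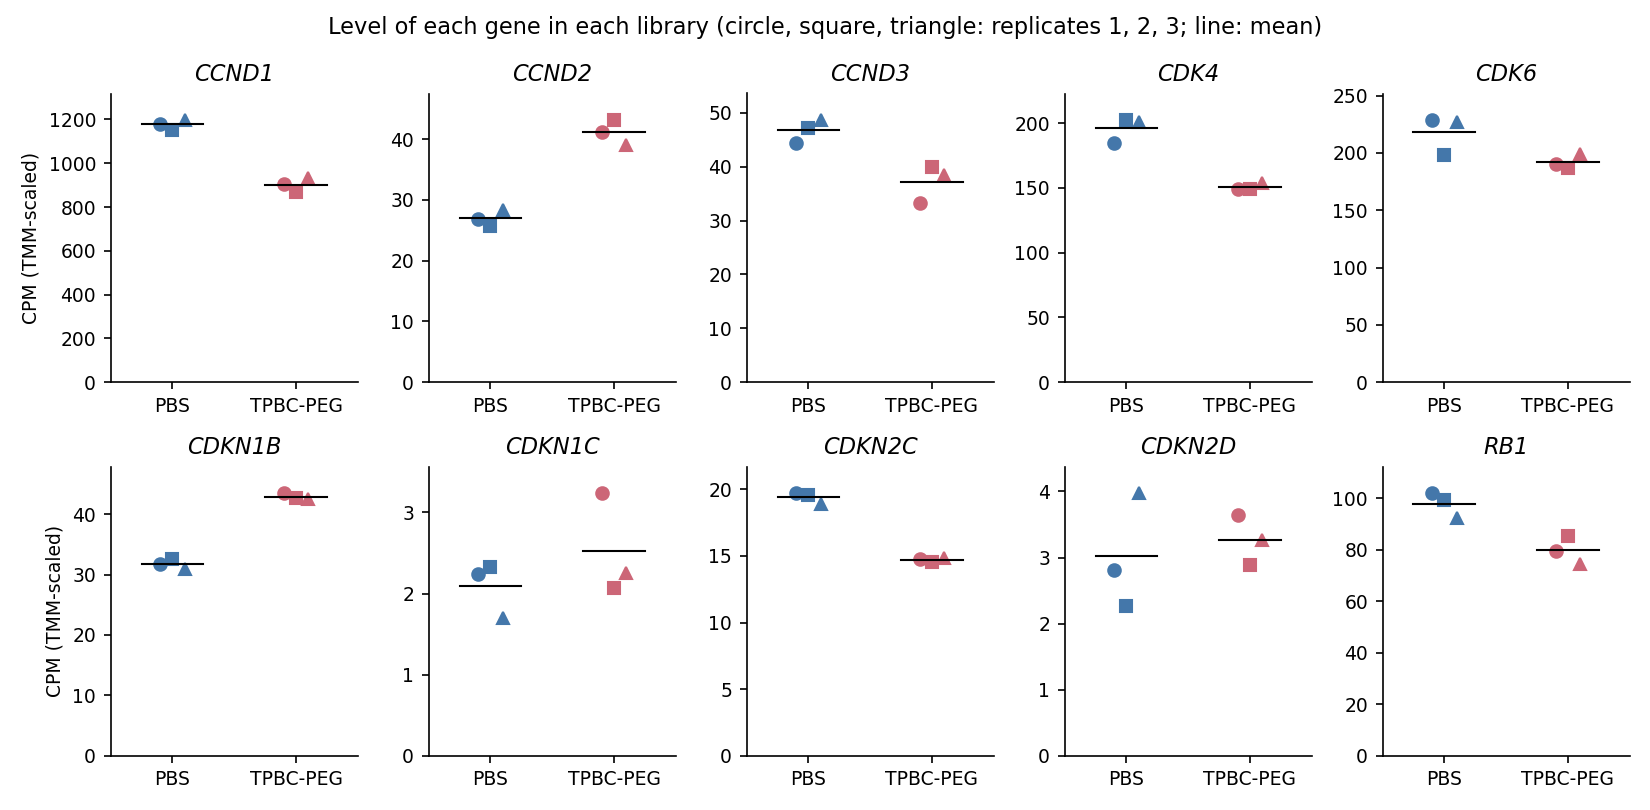
TMM-scaled CPM of each of the 10 genes (vertical axis from 0, its own scale in each panel) in the 3 PBS libraries (blue) and the 3 TPBC-PEG libraries (red), with a circle, square and triangle for replicates 1, 2 and 3 and the group mean as a line. CCND2 and CDKN1B lie higher in all 3 TPBC-PEG libraries, CCND1, CCND3, CDK4, CDKN2C and RB1 lie lower, and the groups overlap for CDK6, CDKN1C and CDKN2D.

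CCND1 encodes cyclin D1 and was the most abundant of the 10 (ENSG00000110092, chromosome 11, 69641087 to 69654474, plus strand, GRCh38). It stood at 1180, 1153 and 1199 CPM in PBS replicates 1 to 3 and at 903.5, 870.3 and 932.9 CPM in TPBC-PEG replicates 1 to 3. Every TPBC-PEG library lay below every PBS library. This gave a log2 fold change of -0.38 ± 0.036 (SE, n = 3 per group, edgeR quasi-likelihood, Benjamini-Hochberg adjusted p = 3.04e-12). Exons of LTO1 on the opposite strand cover 10.3% of the CCND1 exon length. LTO1 itself was far less abundant, at 38.7 ± 0.660 CPM in PBS libraries and 41.7 ± 0.690 CPM in TPBC-PEG libraries (SD, n = 3), and did not pass the test.

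CCND2 encodes cyclin D2 and had the largest absolute log2 fold change of the 10 genes (ENSG00000118971, chromosome 12, 4273772 to 4305350, plus strand). With PBS its level was 26.9, 25.7 and 28.4 CPM, and with TPBC-PEG it was 41.2, 43.2 and 39.1 CPM. The lowest TPBC-PEG value was above the highest PBS value. Its log2 fold change was 0.61 ± 0.068 (SE, n = 3 per group, edgeR quasi-likelihood, Benjamini-Hochberg adjusted p = 3.72e-10). Its exons overlap the antisense gene CCND2-AS1, which had at most 0.579 CPM in any library, and an unnamed gene, ENSG00000285901, with a count of 0 in all 6.

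CCND3, the cyclin D3 gene (ENSG00000112576, chromosome 6, 41934933 to 42050357, minus strand), also fell. It was at 44.4, 47.3 and 48.7 CPM with PBS and at 33.2, 40.0 and 38.6 CPM with TPBC-PEG. These groups did not overlap either, although replicate 1 of TPBC-PEG lay below the other two. The log2 fold change was -0.33 ± 0.066 (SE, n = 3 per group, edgeR quasi-likelihood, Benjamini-Hochberg adjusted p = 8.40e-05).

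The kinase genes both fell. CDK4 (ENSG00000135446, chromosome 12, 57747727 to 57756013, minus strand) was at 185.0, 202.6 and 200.5 CPM with PBS and at 149.3, 149.0 and 153.6 CPM with TPBC-PEG. All TPBC-PEG libraries were lower, and the log2 fold change was -0.38 ± 0.041 (SE, n = 3 per group, edgeR quasi-likelihood, Benjamini-Hochberg adjusted p = 1.30e-10). Exons of TSPAN31, a tetraspanin gene on the opposite strand, cover 43.2% of the CDK4 exon length, and without strand their reads cannot be told apart there. TSPAN31 was counted at 11.7 to 12.6 CPM with PBS and 12.7 to 15.1 CPM with TPBC-PEG and did not pass the test.

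CDK6 (ENSG00000105810, chromosome 7, 92604921 to 92836594, minus strand) was at 228.9, 198.3 and 226.9 CPM with PBS and at 190.5, 186.7 and 198.6 CPM with TPBC-PEG. PBS replicate 2 lay within the range of the TPBC-PEG libraries, so the groups overlapped. This gave a log2 fold change of -0.18 ± 0.044 (SE, n = 3 per group, edgeR quasi-likelihood, Benjamini-Hochberg adjusted p = 0.00117). Of the 8 called genes, CDK6 was the only one whose value moved by more than 1.5 times under any of the 15 other settings run. After removal of the smooth dependence on expression level it was -0.12, with an edgeR adjusted p of 0.0424, the highest of its adjusted p-values over them (the lowest was 3.30e-06). The difference in fold change between CDK4 and CDK6 was not tested.

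Among the inhibitors, CDKN1B rose and CDKN2C fell. CDKN1B, the p27 gene (ENSG00000111276, chromosome 12, 12715058 to 12722371, plus strand), was at 31.8, 32.6 and 31.0 CPM with PBS and at 43.5, 42.6 and 42.5 CPM with TPBC-PEG. Every TPBC-PEG library lay above every PBS library. Its log2 fold change was 0.43 ± 0.064 (SE, n = 3 per group, edgeR quasi-likelihood, Benjamini-Hochberg adjusted p = 3.68e-07). No exon of another annotated gene overlaps CDKN1B.

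CDKN2C, the p18 gene (ENSG00000123080, chromosome 1, 50960745 to 50974633, plus strand), was at 19.7, 19.6 and 18.9 CPM with PBS. With TPBC-PEG it was at 14.8, 14.5 and 14.9 CPM, below every PBS library. The log2 fold change was -0.40 ± 0.088 (SE, n = 3 per group, edgeR quasi-likelihood, Benjamini-Hochberg adjusted p = 0.000309).

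CDKN1C, the p57 gene on chromosome 11 (ENSG00000129757, 2883213 to 2885773, minus strand), had only 27 to 63 reads a library. It was at 2.24, 2.33 and 1.70 CPM with PBS and at 3.24, 2.07 and 2.26 CPM with TPBC-PEG, and the groups overlapped. The 95% interval of the log2 fold change ran from -0.22 to 0.74, so both no change and a rise like that of CDKN1B lie within it. CDKN2D, the p19 gene on chromosome 19 (ENSG00000129355, 10566462 to 10569059, minus strand), had 41 to 71 reads a library, at 2.82, 2.27 and 3.97 CPM with PBS and 3.65, 2.89 and 3.26 CPM with TPBC-PEG. PBS replicates 2 and 3 were its lowest and highest libraries. The 95% interval of its log2 fold change ran from -0.30 to 0.55.

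RB1, the substrate of these kinases and the brake on E2F (ENSG00000139687, chromosome 13, 48303726 to 48599436, plus strand), was at 101.9, 99.1 and 92.3 CPM with PBS. With TPBC-PEG it was at 79.7, 85.3 and 74.4 CPM, and the groups did not overlap. This gave a log2 fold change of -0.29 ± 0.051 (SE, n = 3 per group, edgeR quasi-likelihood, Benjamini-Hochberg adjusted p = 8.11e-06). RB1 thus fell along with its kinases and with most of the cyclin mRNA.

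**Figure D2:**
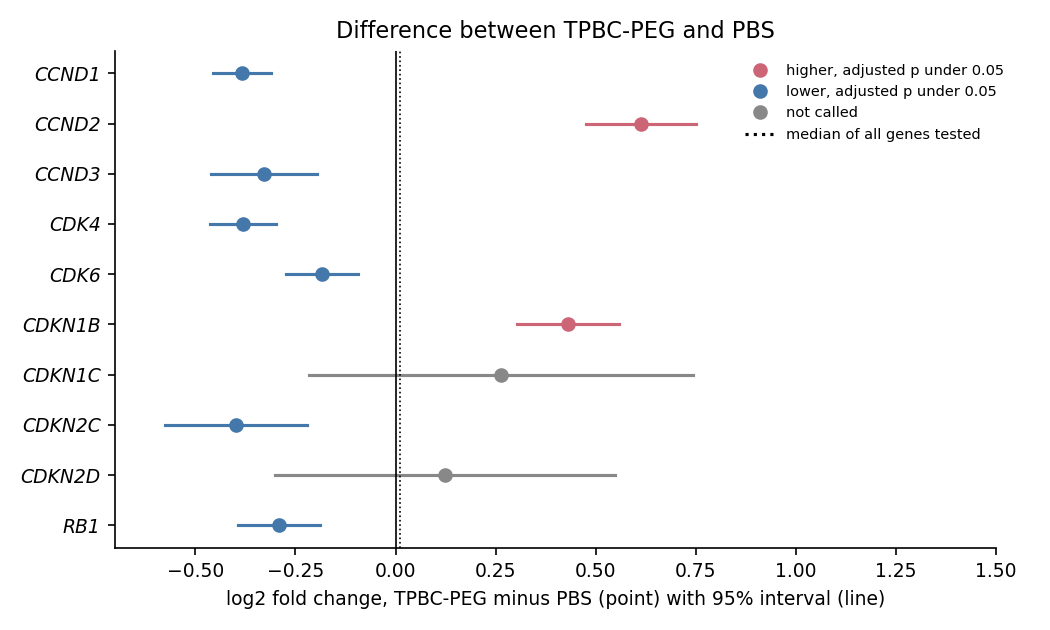
Log2 fold change of each gene, TPBC-PEG minus PBS (horizontal axis), as a point with its 95% interval as a line, blue where called lower, red where called higher and grey where not called. The 6 lower genes lie between -0.40 and -0.18, CCND2 and CDKN1B at 0.61 and 0.43, and the intervals of CDKN1C and CDKN2D cross 0; the dotted line is the median of all genes tested, 0.011.

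Divided by exon length, so that levels of different genes can be set side by side, CCND1 stood far above the others. With PBS the mean levels were 243.7 CPM per kilobase for CCND1, 61.9 for CDK4, 17.8 for CDK6, 15.2 for RB1 and 11.3 for CDKN1B. Below these came CCND3 at 8.07 CPM per kilobase, CDKN2C at 5.85, CCND2 at 3.77, CDKN2D at 2.01 and CDKN1C at 0.844. No neighbours in this order overlapped over the 3 PBS libraries. With TPBC-PEG the order by all exons changed in the middle: CDKN1B, at 15.3 CPM per kilobase, moved above RB1 at 12.4 and its libraries overlapped those of CDK6 at 15.7. CCND2, at 5.75 CPM per kilobase, moved above CDKN2C at 4.44 and overlapped CCND3 at 6.42. The middle of the order depends on the length used: with the longest transcript in place of all exons, RB1, CCND3 and CDK6 stood at 20.4, 19.6 and 18.8 CPM per kilobase with PBS, and neighbours among them overlapped. By that length with TPBC-PEG, RB1, CDK6, CDKN1B and CCND3 stood at 16.7, 16.5, 16.1 and 15.6 CPM per kilobase with overlapping neighbours, so CDKN1B was not above RB1, and CCND3 lay apart from CCND2 at 6.35. CCND1 and CDK4 led, and CDKN2D and CDKN1C came last, with either length.

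**Figure D3:**
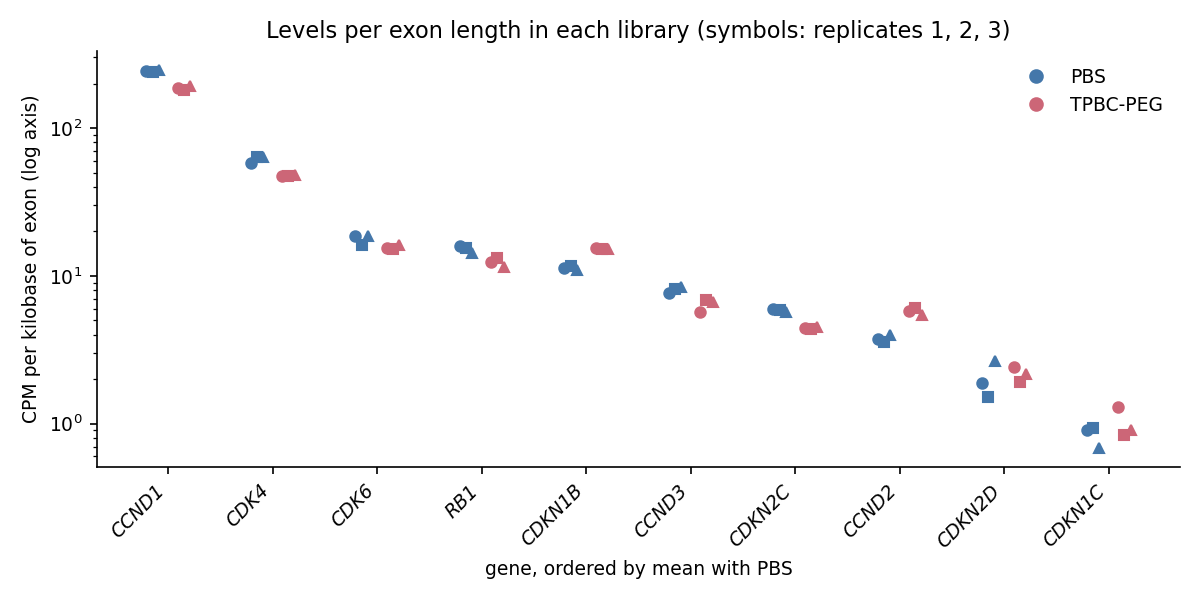
CPM per kilobase of exon (vertical log axis) of the 10 genes in each library, PBS in blue and TPBC-PEG in red, ordered by the PBS mean. CCND1 lies at 180.2 to 248.2 in all 6 libraries and CDKN1C at 0.687 to 1.31.

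The make-up of the cyclin D pool shifted while CCND1 still held most of it. Of the summed level per kilobase of the 3 cyclins, CCND1 made up 95.5%, 95.3% and 95.3% in the PBS libraries and 94.2%, 93.3% and 94.1% in the TPBC-PEG libraries. The CCND2 share was 1.47%, 1.43% and 1.52% with PBS and 2.90%, 3.13% and 2.66% with TPBC-PEG, and no library overlapped. The CCND3 share did overlap, at 3.00% to 3.25% and 2.89% to 3.57%. The ratio of the CCND1 to the CCND2 level was 64.7 ± 1.95 in PBS libraries and 32.6 ± 2.77 in TPBC-PEG libraries (SD, n = 3). These shares and ratios are descriptions of the same counts and carry no test of their own. With the longest transcript as the length the CCND3 share was larger, 6.58% ± 0.283 in PBS libraries and 6.73% ± 0.684 in TPBC-PEG libraries (SD, n = 3).

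Summed cyclin D mRNA and summed kinase mRNA were both lower with TPBC-PEG. The summed cyclin D level was 255.6 ± 5.01 CPM per kilobase with PBS and 199.0 ± 6.09 with TPBC-PEG, and that of CDK4 plus CDK6 was 79.7 ± 2.41 and 63.2 ± 1.30 (mean ± SD, n = 3). Their ratio was 3.13 to 3.32 in the PBS libraries and 3.10 to 3.17 in the TPBC-PEG libraries, which overlap. CDK4 made up 75.8% to 79.8% of the kinase level with PBS and 75.0% to 75.5% with TPBC-PEG. Both quantities depend on the length used. With the longest transcript the ratio was 2.54 to 2.73 with PBS and 2.57 to 2.62 with TPBC-PEG. The CDK4 share was then 81.9% to 85.1% and 81.2% to 81.7%. Exons of TSPAN31 cover 43.2% of the CDK4 exon length. How reads there were counted is unknown, so the CDK4 level per kilobase and its share are uncertain with either length.

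Relative to the D-type cyclins, CDKN1B mRNA was higher with TPBC-PEG. CDKN1B mRNA came to 4.43%, 4.63% and 4.23% of the summed cyclin D level in the PBS libraries and to 7.79%, 7.85% and 7.37% in the TPBC-PEG libraries. Its level over that of CDKN2C was 1.93 ± 0.031 in PBS libraries and 3.44 ± 0.052 in TPBC-PEG libraries (SD, n = 3). Summed over CDKN1B, CDKN1C, CDKN2C and CDKN2D, the level was 19.9 to 20.05 CPM per kilobase with PBS and 22.3 to 23.7 with TPBC-PEG. CDKN1B made up 56.5% ± 1.60 and 66.7% ± 1.32 of that sum. The inhibitor gene CDKN1A is not in the sum and was more abundant than CDKN1B. Its mean was 57.2 CPM with PBS and 74.5 CPM with TPBC-PEG, over 3050 bases of exon. That of CDKN1B was 31.8 and 42.9 CPM over 2811 bases. A share counted with CDKN1A would therefore be smaller. These are amounts of mRNA, and the proteins were not measured here.

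Of the other inhibitor genes, CDKN1A (p21), a p53 target of the CIP/KIP family, rose and CDKN3, a phosphatase gene that acts on CDKs, fell. CDKN1A was at 57.2, 58.6 and 55.9 CPM with PBS and 70.3, 78.9 and 74.4 CPM with TPBC-PEG, a log2 fold change of 0.38 ± 0.054 (SE, n = 3 per group, edgeR quasi-likelihood, Benjamini-Hochberg adjusted p = 1.15e-07). Thus the CIP/KIP genes with a sizeable level, CDKN1A and CDKN1B, both rose. CDKN3 was at -0.16 ± 0.051, and its call was lost without PBS replicate 2 (edgeR adjusted p of 0.0519), without TPBC-PEG replicate 2 (0.0866) and when scaled by library size alone (0.0888). CDKN2A and CDKN2B, the remaining INK4 genes, did not pass the filter, with at most 2 reads and 1 read in any library. CDKN2C thus had the highest level per kilobase of the 4 INK4 genes.

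In the list of RB relatives and E2F factors 3 of 12 genes rose and 5 fell, with a median log2 fold change of -0.084. The share called was 66.7%, beside 33.2% of all genes tested. RBL1 (p107) fell with RB1, at -0.29, while RBL2 (p130), the relative known for quiescent cells, rose by 0.19. E2F7, an atypical repressor E2F, rose from 101.9, 101.6 and 101.5 CPM to 154.4, 158.2 and 152.4 CPM, a log2 fold change of 0.61 ± 0.042 (SE, n = 3 per group, edgeR quasi-likelihood, Benjamini-Hochberg adjusted p = 1.12e-16). The other E2F genes called were lower: E2F4 at -0.35, E2F8 at -0.28 and E2F1 at -0.19. The E2F1 call was lost without PBS replicate 2 (edgeR adjusted p of 0.0892), without TPBC-PEG replicate 2 (0.0873), with the GC trend removed (0.105) and with scaling by library size alone (0.0501). Of the dimer partners, TFDP1 fell, at -0.37, and TFDP2 rose, by 0.28. The list of DREAM and MuvB subunits also holds MYBL2 and FOXM1, which are partners of MuvB and not subunits. MuvB represses or activates cell cycle genes depending on its partners. In this list 3 of 7 fell and 0 rose (median -0.27), 42.9% called beside 33.2% of all genes tested. The partners MYBL2 and FOXM1 were at -0.42 and -0.30. Of the subunits RBBP4 fell, at -0.27, while LIN9, LIN37, LIN52 and LIN54 did not pass the test.

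Genes that act after the RB step fell for the most part. Of 6 genes for cyclin E, cyclin A and CDK2 function 5 fell and 0 rose, 83.3% called beside 33.2% of all genes tested. CCNE1 was at -0.33, CCNA2 at -0.24 and CCNE2 at -0.23 (median -0.22). The CCNE1 call was lost without PBS replicate 1, at an edgeR adjusted p of 0.0531, and without TPBC-PEG replicate 1, at 0.0978. Exons of other genes cover 37.1% of the CCNE2 exon length. Of 19 E2F target genes of S phase 16 fell and 0 rose, with a median of -0.31 and a share called of 84.2% beside 33.2%. TYMS, 46.6% of whose exon length is shared with other genes, was at -0.56, and GINS2, a subunit of the replicative helicase, at -0.48. A fall of replication genes was known from earlier results of these data, so this count is not independent of them.

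Genes known to control p27 protein come next. Of 7 genes that serve p27 turnover 2 fell and 0 rose (median -0.089), a share called of 28.6%, below the 33.2% of all genes tested. SKP2, the F-box protein that targets p27 for degradation, fell from 152.8, 154.6 and 149.3 CPM to 109.2, 110.4 and 118.8 CPM, a log2 fold change of -0.43 ± 0.043 (SE, n = 3 per group, edgeR quasi-likelihood, Benjamini-Hochberg adjusted p = 1.22e-11). CKS1B, its cofactor, was at 26.1 ± 1.75 and 26.4 ± 1.95 CPM and did not pass the test. UBAC1, at -0.20, lost its call in 7 of the 15 other settings, with edgeR or DESeq2 adjusted p-values of 0.0810 to 0.276. These include leaving out PBS replicate 1 or 3 or TPBC-PEG replicate 1 or 2.

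Of 5 genes that act on CDKN1B and CDKN2C transcription 3 rose and 0 fell, 60% called beside 33.2% of all genes tested. FOXO4 rose by 0.63, FOXO3 by 0.47 and the methyltransferase gene KMT2A by 0.14, which was also the list median. The FOXO4 level was low, with 44 to 95 reads a library and means of 2.91 CPM with PBS and 4.54 CPM with TPBC-PEG. Its 95% interval ran from 0.26 to 1.01. FOXO3 went from 38.9, 39.0 and 37.6 CPM to 54.6, 54.9 and 49.7 CPM, so its groups did not overlap. FOXO1 and MEN1 did not pass the test, at 0.12 and -0.029. In the CCND1 transcription list 4 of 7 fell and 0 rose (median -0.14), a share called of 57.1% beside 33.2%. STAT3 was at -0.25, CTNNB1 (beta-catenin) at -0.21 and FOSL1, an AP-1 subunit, at -0.14. When the dependence on expression level was removed, 2 of the 7 were called: FOSL1 was then at -0.054 (edgeR adjusted p of 0.288) and ETS2, the fourth gene called, at -0.12 (0.0771). The ETS2 call was lost in 6 of the 15 other settings, with adjusted p-values of 0.0502 to 0.204, among them leaving out PBS replicate 1 or 2 or TPBC-PEG replicate 2.

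In the D-type cyclin turnover list 3 of 9 measured genes fell and 0 rose (median -0.045), a share called of 33.3%, near the 33.2% of all genes tested: the cullin genes CUL4A at -0.22 and CUL4B at -0.17, and RBX1 at -0.19. AMBRA1, the receptor that sends D-type cyclins to this ligase, was at 21.7 ± 0.981 and 21.1 ± 1.08 CPM and did not pass. RBX1 was not called without PBS replicate 1 (edgeR adjusted p of 0.0758), without TPBC-PEG replicate 2 (0.0651) or when scaled by library size alone (0.0704). Of 6 genes for CDK activation and folding 3 fell and 0 rose (median -0.16), a share called of 50% beside 33.2%. Those that fell were the chaperone genes HSP90AA1 at -0.57 and HSP90AB1 at -0.31 and CDC37 at -0.25, the kinase cochaperone known to fold CDK4. CDK7, CCNH and MNAT1, which form the CDK-activating kinase, did not pass the test. CDK7 was at 0.14 and CCNH at -0.062, and MNAT1 had 65.1 CPM with PBS and 65.0 CPM with TPBC-PEG. Over the 10 lists 80 of 83 genes were measured, 7 rose and 42 fell. Among all genes tested 16.2% were called higher and 16.9% lower. The lists were chosen with earlier results of these data known, so their counts are descriptions only.

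**Figure D4:**
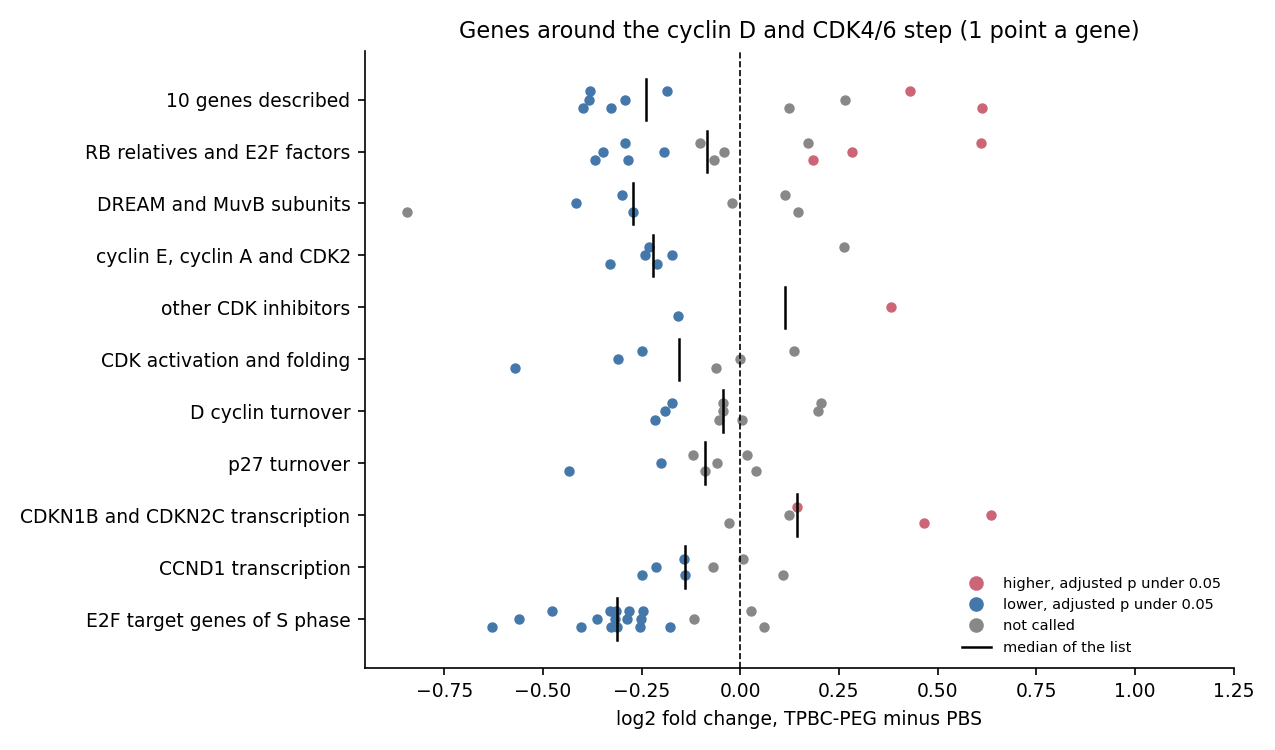
Log2 fold change, TPBC-PEG minus PBS (horizontal axis), of each measured gene in the 10 lists and of the 10 genes described, 1 point a gene, blue where called lower, red where called higher and grey where not called, with the list median as a black line. The medians run from -0.31 for E2F target genes of S phase to 0.14 for genes that act on CDKN1B and CDKN2C transcription.

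CCND1 had the smallest adjusted p of the 10, and the genes nearest to its pattern were found by Euclidean distance between centred log2 CPM over the 6 libraries, among the 14238 genes whose mean reached 1 CPM. SLC19A1, the reduced folate carrier, lay at 0.040, NREP at 0.044 and TSPAN14 at 0.044. Their log2 fold changes were -0.37, -0.36 and -0.36.

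The calls were the same under the other ways of processing. In all 15 other settings 2 members were called higher and 6 lower. CCND1 ran from -0.41 to -0.27, CCND2 from 0.57 to 0.66 and CDKN1B from 0.40 to 0.47. The CCND1 value of -0.27 came with the dependence on expression level removed.

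**Figure D5:**
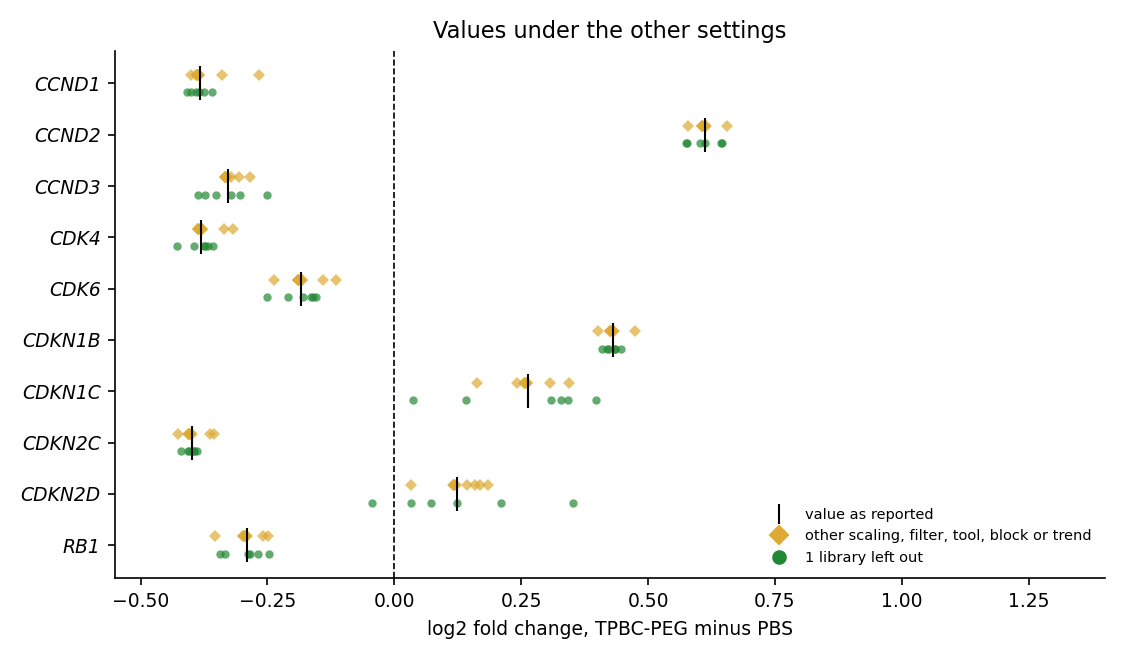
Log2 fold change of each of the 10 genes (horizontal axis) as reported (black tick), under 9 other scalings, filters, tools, a replicate block and trend removals (yellow), and with each of the 6 libraries left out (green). CDKN2D is the gene whose value crosses 0, at -0.045 without PBS replicate 2.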

How the data were processed

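RNA was sequenced from 143B cells in 6 libraries, grouped by the sample titles. Per the labels' protocols, Trizol was used for total RNA, from animal tissue by the extraction text and from cultured cells by the sample labels. The authors deposited raw counts per Ensembl gene. HISAT2 and GRCh38 are named in the submitters' processing notes. How reads were counted, against which annotation release and with which strand setting is not given in the sources used here, so where genes overlap, the strand a read came from is unknown here. Symbols matched 42013 rows, and 0 rows named no gene.

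Analysis of the deposited counts used edgeR 4.0.16 in R 4.3.3: filterByExpr (minimum count 10, minimum total 15), TMM, and the robust quasi-likelihood test with group as the only term and Benjamini-Hochberg adjustment over 15846 genes. Calls used 0.05 as the threshold. Standard errors came from the F statistic and gave the 95% intervals. Log2 CPM used a prior count of 2. Exon lengths and overlaps came from GENCODE release 29. No molecular identifiers are mentioned, so reads need not be independent molecules. Pearson's r of log2 CPM was 0.992 to 0.993 within groups and 0.985 to 0.988 between them. The chi-square per degree of freedom between replicate libraries was 2.25 to 4.32, above sampling noise.

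On simulated data with 200 of 15846 genes changed between TPBC-PEG and PBS, recovery was 48% for a 1.25-fold change, 84% for 1.5-fold, 98% for 2-fold and 100% for 4-fold. Of 182 calls 17 were false (9.34%), a share above the threshold of 0.05. Far fewer genes were changed in the simulation than the 5256 called in the data, so these rates need not hold there. Genes with a low expected count were not among those changed, so the recovery rates do not cover them.

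The members and the lists around them were chosen with earlier results of these data known. Named genes are the 10 members, in each list the called genes with the largest change, at most 3 per direction and with a mean of 1 CPM or more (the 2 most abundant where none was called), and the 3 genes nearest to the member with the smallest adjusted p. One result that this rule names is not reported here. E2F8, E2F1, E2F5, LIN9, LIN37, LIN52, LIN54, CHEK1, ORC1, ETS2, CKS1B, CUL1, AMBRA1, FBXW8, FOXO1, MEN1, CDK7, CCNH, MNAT1, CDKN2A and CDKN2B were named after their values were seen. The settings tried were DESeq2 size factors, library size alone, no filter, requiring 1 CPM in 3 libraries, the DESeq2 1.42.0 test, limma-voom (limma 3.58.1), the replicate number as a block, offsets removing a smooth trend (lowess, span 0.3) with expression level or GC content, and leaving out each library.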

Additional observations from a re-analysis of the deposited data

How the results depend on the processing

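Of 150 member values under another setting, 149 kept their direction and their side of the threshold. CDKN2D, which was not called, turned to -0.045 without PBS replicate 2, and ran from -0.045 to 0.35 over the libraries left out in turn. Library size alone called 11 list genes higher in place of 7, while 43 to 50 list genes were called in all over the settings, 49 as reported. The balance over all genes also moved there, to 3213 higher and 1971 lower against 2574 and 2682. With the replicate number as a block CCND1 was at -0.38 and CDK6 at -0.18, and the block changed no member's call. Deviations from group means of same-numbered libraries correlated at -0.015 to 0.065 and those of other pairs at -0.055 to 0.051. With 3 libraries a group, these values cannot settle whether the numbers pair the libraries. Of 31 list genes given by the naming rule 26 kept their call in all 15 settings. CCNE1, CDKN3, RBX1, UBAC1 and FOSL1 lost it in at least 1. Outside that rule E2F1 lost its call in 4 settings and ETS2 in 6. CHEK1, counted among the S phase genes that fell, lost its call in 3. Some list genes not called as reported gained a call under another setting. These were CUL1 in 5 settings and CDK7, LIN54 and ORC1 in 2 each. CCNH, E2F5, FBXW8, LIN9 and LIN37 gained it in 1 each. CDKN1C and CDKN2D had under 75 reads a library and standard errors of 0.24 and 0.21, against 0.036 to 0.088 for the other members, and the part of depth in their missing calls was not tested.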
